A study of Mus musculus with 9 samples.

Results

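The CD300 leukocyte receptor family was described in mouse blood through 5 genes, Cd300a, Cd300lb, Cd300lf, Cd300ld and Cd300lg, out of 18194 genes with a value on the arrays. The genes were taken by name as members of 1 receptor family, which was picked up after the difference of Cd300a between PT + HS and PT was known. The probe set of each gene was chosen by the highest mean over the 9 arrays, a value that does not use the groups. This choice mattered for Cd300a alone, which had 2 probe sets, while each of the other 4 genes had 1. The difference of Cd300a between PT + HS and PT, and that between PT and Ctrl, which shares the PT arrays, are therefore given as a description with no test. Total RNA of peripheral blood from C57BL/6 mice, 8 to 9 weeks old, was hybridized to 9 arrays, 1 per animal, with 3 animals in each of 3 groups. PT + HS mice had a polytrauma (PT, an injury of the brain, the thigh bone with its soft tissue, and both sides of the chest) with hemorrhagic shock (HS), in which blood was drawn from 1 h after trauma until the mean arterial pressure reached 30 mmHg. This pressure was held for 60 min, and 4 times the drawn volume was given back as electrolyte solution within 30 min, with norepinephrine where the pressure was otherwise not held. Bleeding, fluid and norepinephrine therefore cannot be told apart in a difference of PT + HS from PT. PT mice had the same injuries without the bleeding, and blood of both injured groups was taken 4 h after trauma. Ctrl mice were not injured and were bled as soon as they were anesthetized, without the long anesthesia, the buprenorphine and the catheters of the injured mice, so that none of these can be told apart from the trauma in a difference from Ctrl.

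CD300 receptors are small membrane proteins of myeloid cells with a single immunoglobulin-like domain, which binds lipids exposed on dying cells and on activated cells. Inhibitory members carry tyrosine motifs in a long tail that recruit the phosphatases Ptpn6 and Ptpn11. Activating members have a short tail and pair in the membrane with the adaptors Tyrobp or Fcer1g, which pass the signal to the kinase Syk. In the mouse, Cd300a and Cd300lf are counted among the inhibitory receptors, Cd300lb and Cd300ld among the activating ones, and Cd300lg is a mucin-like adhesion receptor of the endothelium. As bulk blood was measured, fewer cells of a type and less RNA per cell cannot be told apart in any value below.

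The start regions of the 4 members with a signal in blood are shown because these genes lie in 1 cluster and yet differed in their order of groups. The sequences are those of RefSeq on the build GRCm38.p6, from 250 bases before to 50 bases after the start of the gene, 5′ to 3′ on the strand of the gene. Capitals mark matches of either strand to GAGGAAGT, a form of the binding motif of PU.1, a transcription factor of myeloid cells, and to TTGCNNAA, a form of the motif of the C/EBP factors. The regions are chr11:115133943-115134242 on the minus strand for Cd300lf, chr11:114989837-114990136 on the minus strand for Cd300ld, chr11:114889791-114890090 on the plus strand for Cd300a and chr11:114934322-114934621 on the minus strand for Cd300lb.
Cd300lf: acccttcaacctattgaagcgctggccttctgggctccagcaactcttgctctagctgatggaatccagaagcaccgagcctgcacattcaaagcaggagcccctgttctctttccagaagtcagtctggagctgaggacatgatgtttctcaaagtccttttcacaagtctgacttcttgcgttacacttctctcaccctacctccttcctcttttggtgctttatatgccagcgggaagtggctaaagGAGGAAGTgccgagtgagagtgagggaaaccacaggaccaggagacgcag
Cd300ld: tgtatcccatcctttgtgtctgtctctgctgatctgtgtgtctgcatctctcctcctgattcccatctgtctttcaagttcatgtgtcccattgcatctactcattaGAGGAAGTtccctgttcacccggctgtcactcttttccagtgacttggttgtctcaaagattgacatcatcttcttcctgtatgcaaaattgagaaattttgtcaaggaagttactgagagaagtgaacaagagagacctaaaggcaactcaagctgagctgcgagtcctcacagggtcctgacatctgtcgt
Cd300a: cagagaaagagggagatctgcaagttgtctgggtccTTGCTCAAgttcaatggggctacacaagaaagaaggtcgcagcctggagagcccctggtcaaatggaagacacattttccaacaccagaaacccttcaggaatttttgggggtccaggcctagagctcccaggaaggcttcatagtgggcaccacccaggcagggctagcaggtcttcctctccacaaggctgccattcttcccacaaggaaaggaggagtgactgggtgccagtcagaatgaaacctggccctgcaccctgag
Cd300lb: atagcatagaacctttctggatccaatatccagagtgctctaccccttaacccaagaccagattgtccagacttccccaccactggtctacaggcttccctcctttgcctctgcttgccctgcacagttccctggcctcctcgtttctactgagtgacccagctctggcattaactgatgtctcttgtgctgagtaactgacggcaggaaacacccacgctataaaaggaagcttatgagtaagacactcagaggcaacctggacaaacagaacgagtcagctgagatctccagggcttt

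Cd300lf and Cd300ld each held 1 match to GAGGAAGT, with its first base at position 1, the start itself, in Cd300lf and at position -143 in Cd300ld. Neither Cd300a nor Cd300lb held one, and over all 32851 start regions of this length 3.2% had such a match. Cd300a held 1 match to TTGCNNAA, which 10.8% of all start regions had, and the other 3 members held none. Matches of letters are a description of the sequence, and binding of a factor was not measured here. As the motifs were chosen with the sequences and the values of the members known, nothing is read from these shares. A link of the matches to the order of groups was not tested. Cd300ld has close relatives beside it, and the start regions of Cd300ld3, Cd300ld4 and Cd300ld5 had 76.0%, 76.3% and 76.3% of their bases in common with it, against 57.7% to 62.7% for pairs among the 4 members above. Those relatives have no value of their own here. Whether the probe set named Cd300ld also detects their transcripts was not tested, so that its signal is uncertain in this respect.

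The deposited values are log2 intensities from robust multiarray average, which the authors ran, a background correction, quantile normalization and summary per probe set. A gene is counted as past the thresholds of the study if limma, fitted to all 9 arrays, gave a p under 0.05 before adjustment together with 1.5-fold or more, and adjusted p-values are over all 18194 genes. PT replicate 2 stood apart, with correlations of 0.900 to 0.944 to the other arrays, which correlated with each other at 0.958 or more, so that differences of the members that it moves by over 1.5 times are also given without it. The number of arrays limits the precision.

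Cd300lf, an inhibitory receptor that binds phosphatidylserine and ceramide, was the member with the largest distance of the injured mice from Ctrl mice. On the log2 scale it had 8.48, 7.71 and 8.90 in PT + HS, 8.32, 6.91 and 8.42 in PT, and 6.05, 5.33 and 5.33 in Ctrl. Every injured animal was above every Ctrl animal, and the lowest injured value was that of PT replicate 2. The means were 8.37 ± 0.60 in PT + HS, 7.89 ± 0.84 in PT and 5.57 ± 0.41 in Ctrl (SD, n = 3 each). Against Ctrl this was 2.80 on the log2 scale in PT + HS (standard error 0.43), or 6.96-fold, and 2.32 in PT (standard error 0.43), or 4.99-fold. Both differences were past the thresholds of the study, whereas after adjustment over all genes by limma they did not pass (adjusted p = 0.166 for PT + HS and 0.343 for PT). Without PT replicate 2 they were 2.80 and 2.81 and both passed (adjusted p = 0.0137 for PT + HS and 0.0215 for PT). In the fit to the arrays of PT + HS and Ctrl alone the adjusted p for PT + HS was 0.0117, and over all alternatives it ran from 0.0117 to 0.845. Between PT + HS and PT the values overlapped, with a difference of 0.48 (95% interval -0.49 to 1.45), and of -0.01 without PT replicate 2.

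**Figure D1:**
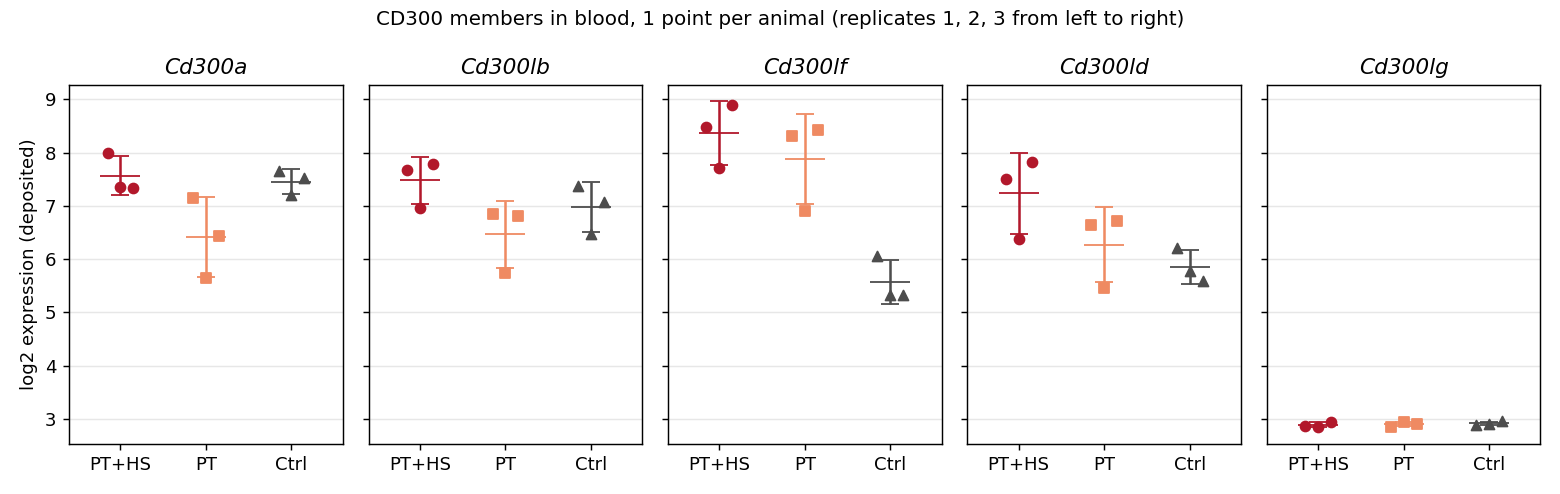
Log2 expression of the 5 members on the 9 arrays, with PT + HS, PT and Ctrl from left to right, 1 point per animal in the order of replicates 1 to 3, the mean as a horizontal line and the SD as a bar. The 6 injured animals lie at 6.91 to 8.90 for Cd300lf against 5.33 to 6.05 in Ctrl, while Cd300lg stays between 2.85 and 2.95 on all arrays.

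Cd300a, an inhibitory receptor for phosphatidylserine and phosphatidylethanolamine, showed another order, with PT below both other groups. It had 7.99, 7.36 and 7.34 in PT + HS, 7.15, 5.65 and 6.43 in PT, and 7.65, 7.20 and 7.52 in Ctrl. All PT animals were below all PT + HS and all Ctrl animals, with PT replicate 1 close to the other groups and PT replicate 2 the lowest. The means were 7.56 ± 0.37 in PT + HS, 6.41 ± 0.75 in PT and 7.46 ± 0.23 in Ctrl (SD, n = 3 each). PT + HS exceeded PT by 1.15 (standard error 0.35), or 2.22-fold, and PT differed from Ctrl by -1.05 (standard error 0.35). Without PT replicate 2 these differences were 0.77 and -0.67, and without PT replicate 1 they were 1.53 and -1.42. PT + HS and Ctrl overlapped and differed by 0.11 (95% interval -0.67 to 0.89, adjusted p = 0.999 by limma). The second probe set of Cd300a was dim, with values of 3.13 to 4.36, and did not follow the first. It gave -0.30 between PT + HS and PT (standard error 0.28) and 0.13 between PT and Ctrl, so that the pattern of Cd300a rests on 1 probe set.

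Cd300ld, an activating receptor that signals through Fcer1g, had 7.50, 6.38 and 7.82 in PT + HS, 6.64, 5.46 and 6.71 in PT, and 6.21, 5.78 and 5.59 in Ctrl. All PT + HS animals were above all Ctrl animals, and PT spanned from below the lowest Ctrl animal to above the highest. PT + HS exceeded Ctrl by 1.37 (standard error 0.42), or 2.59-fold, past the thresholds of the study and with an adjusted p of 0.684 by limma. PT + HS exceeded PT by 0.96 (standard error 0.42, adjusted p = 1.0), also past the thresholds although PT + HS replicate 2 lay below 2 PT animals. Without PT replicate 2 that difference was 0.56 and no longer past them, as also without any 1 of the Ctrl animals. PT and Ctrl differed by 0.41 (95% interval -0.53 to 1.35), and by 0.81 without PT replicate 2.

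Cd300lb, an activating receptor that signals through Tyrobp, had 7.68, 6.97 and 7.79 in PT + HS, 6.84, 5.74 and 6.81 in PT, and 7.38, 6.47 and 7.08 in Ctrl. PT + HS lay above PT on all arrays, narrowly so for PT + HS replicate 2 over PT replicate 1, and Ctrl overlapped both. PT + HS exceeded PT by 1.01 (standard error 0.36, adjusted p = 1.0 by limma), or 2.02-fold, past the thresholds. Without PT replicate 2 the difference was 0.65 and not past them. Against Ctrl the differences were 0.50 in PT + HS (95% interval -0.30 to 1.30) and -0.51 in PT (95% interval -1.31 to 0.29), neither past the thresholds. Single arrays moved both, to 0.24 without Ctrl replicate 2 and 0.75 without PT + HS replicate 2 for PT + HS, and to -0.15 without PT replicate 2 and -0.77 without Ctrl replicate 2 for PT.

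Cd300lg, the endothelial member that takes part in the entry of lymphocytes into lymph nodes, had 2.87, 2.85 and 2.94 in PT + HS, 2.85, 2.94 and 2.91 in PT, and 2.89, 2.91 and 2.95 in Ctrl. These values are under the lower quartile of 3.38 over the means of all genes, and the 3 groups overlapped. The differences were -0.01 between PT + HS and PT, -0.03 between PT + HS and Ctrl and -0.02 between PT and Ctrl, with 95% intervals that reached no further than -0.34 and 0.30. Of 8 endothelial markers, 4 had a mean below the median gene on the same arrays. Among these were the defining cadherin Cdh5, with means of 3.38 in PT + HS, 3.34 in PT and 3.20 in Ctrl, and the receptor kinase Tek, with means of 2.62 in PT + HS, 2.66 in PT and 2.70 in Ctrl. The other 4 were above it, with the brightest, Esam, an adhesion protein that platelets also carry, at 7.73 in PT + HS, 7.09 in PT and 7.71 in Ctrl.

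**Figure D2:**
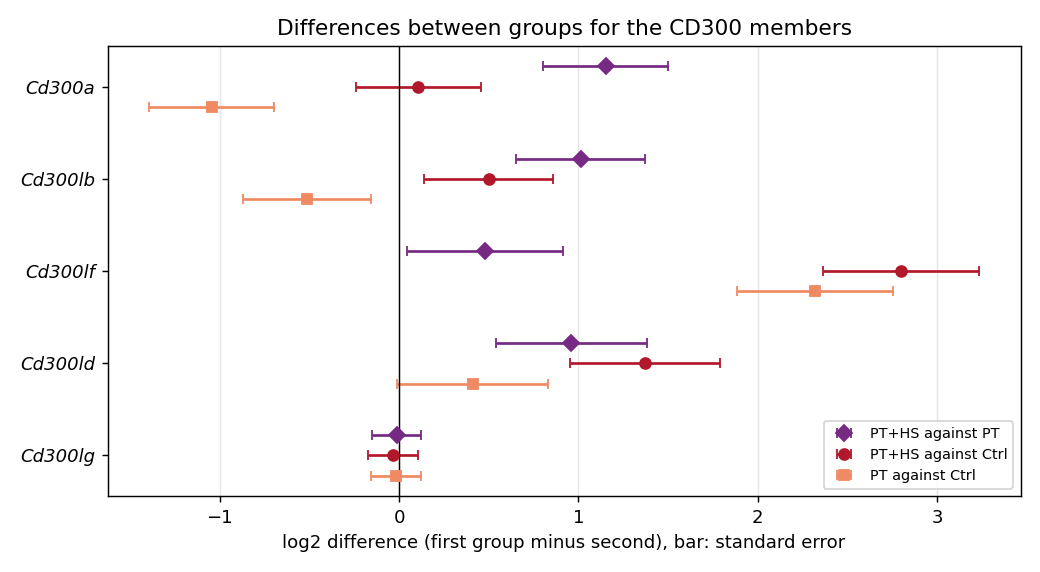
Log2 differences of the 5 members in the 3 comparisons, first group minus second, with the standard error from limma as a bar. Cd300lf lies at 2.80 and 2.32 against Ctrl and Cd300ld at 1.37 and 0.41, while Cd300a and Cd300lb lie at -1.05 and -0.51 in PT against Ctrl and at 1.15 and 1.01 in PT + HS against PT.

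Of the 4 members other than Cd300a, 2 were past the thresholds of the study between PT + HS and PT, Cd300lb and Cd300ld, both higher in PT + HS, where 1.12% of all genes passed. Between PT + HS and Ctrl 2 passed, Cd300lf and Cd300ld, both higher, where 3.28% of all genes passed. Between PT and Ctrl 1 passed, Cd300lf, as higher, where 3.67% of all genes passed. The groups of these 4 members did not overlap for Cd300lb between PT + HS and PT, for Cd300lf and Cd300ld between PT + HS and Ctrl, and for Cd300lf between PT and Ctrl, and over all genes for 7.17% between PT + HS and PT, 13.2% between PT + HS and Ctrl and 9.44% between PT and Ctrl. Of these 4 members 0 had an adjusted p below 0.05 by limma in the fit to all arrays, and of all genes 0% passed between PT + HS and PT, 0.0055% between PT + HS and Ctrl and 0% between PT and Ctrl. As the family was taken up with earlier results known, nothing is read from these shares. The median over all 5 members was 0.96 between PT + HS and PT, 0.50 between PT + HS and Ctrl and -0.02 between PT and Ctrl, beside medians over all genes of -0.00315 between PT + HS and PT, -0.014 between PT + HS and Ctrl and -0.00025 between PT and Ctrl.

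The patterns did not divide the members by sign of signaling. As a distance from the Ctrl mean, the inhibitory Cd300lf was at 2.92, 2.15 and 3.34 in PT + HS and at 2.76, 1.35 and 2.86 in PT, whereas the inhibitory Cd300a was at 0.53, -0.09 and -0.12 in PT + HS and at -0.30, -1.81 and -1.03 in PT. On each of the 6 injured arrays the value of Cd300lf was above that of Cd300a. Of the activating members, Cd300ld was at 1.64, 0.52 and 1.95 in PT + HS and at 0.78, -0.40 and 0.85 in PT, and Cd300lb at 0.70, -0.01 and 0.81 in PT + HS and at -0.14, -1.24 and -0.17 in PT. On each injured array the activating Cd300ld was above the activating Cd300lb. Averaged over both inhibitory and both activating members, the inhibitory mean exceeded the activating mean by 0.55, 0.77 and 0.23 in PT + HS, 0.90, 0.59 and 0.57 in PT, and -0.04, 0.05 and -0.01 in Ctrl. Cd300lf carried this excess, since Cd300a itself was below the activating mean on each of the 6 injured arrays. Over the 9 arrays Cd300a correlated with Cd300lb at r = 0.83 and Cd300lf with Cd300ld at r = 0.83. Cd300lb and Cd300ld were also close, at r = 0.77, while Cd300a and Cd300lf had r = -0.04. These correlations are descriptions over arrays that share their groups and PT replicate 2.

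Markers of some blood cell types also differed between the groups. Among the neutrophil markers 15 were measured, of which 14 had a positive difference from Ctrl in PT + HS (median 1.18) and 14 in PT (median 0.73). Their mean log2 level was 7.31 to 8.34 in PT + HS, 6.97 to 7.99 in PT and 6.06 to 6.98 in Ctrl. Cd300lf, Cd300ld and Cd300lb were lowest within PT + HS and within PT on the arrays where this mean was lowest, replicate 2 in each group, and so was Cd300lb within Ctrl. Cd300a was lowest on replicate 2 within PT (5.65) and within Ctrl (7.20). Within PT + HS it had 7.36 on replicate 2, close to its lowest value of 7.34 on replicate 3. Among the monocyte markers 12 were measured, of which 12 had a positive difference of PT + HS from PT (median 0.51) and 3 of PT from Ctrl (median -0.56), with mean levels of 7.39 to 7.56 in PT + HS, 6.58 to 7.39 in PT and 7.23 to 7.54 in Ctrl. The list did not move as 1 from Ctrl to PT. The 3 higher markers were Ccr2 (mean 9.55 in PT and 8.19 in Ctrl), F13a1 (9.58 and 9.09) and Fn1 (6.98 and 6.72). Among the lower ones were Cx3cr1 (4.83 and 6.12), Nr4a1 (5.95 and 7.27) and Treml4 (5.65 and 6.82). Cd300a and Cd300lb had their lowest mean in PT, although their lowest value was on PT replicate 2 and the lowest monocyte mean, 6.58, on PT replicate 3. The medians against Ctrl were -1.64 in PT + HS and -1.71 in PT for B-cell markers, and -0.36 in PT + HS and -0.58 in PT for NK-cell markers. Between PT + HS and PT they were -0.14 for B-cell and 0.34 for NK-cell markers. Medians for the lists of T cells, dendritic cells, mast cells and basophils, eosinophils, platelets, red cell precursors and the endothelium lay between -0.40 and 0.26 in all 3 comparisons. No marker of any list is listed at 0, since these log2 values have no true zero. The part of cell numbers in the differences of the CD300 genes was not tested.

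**Figure D3:**
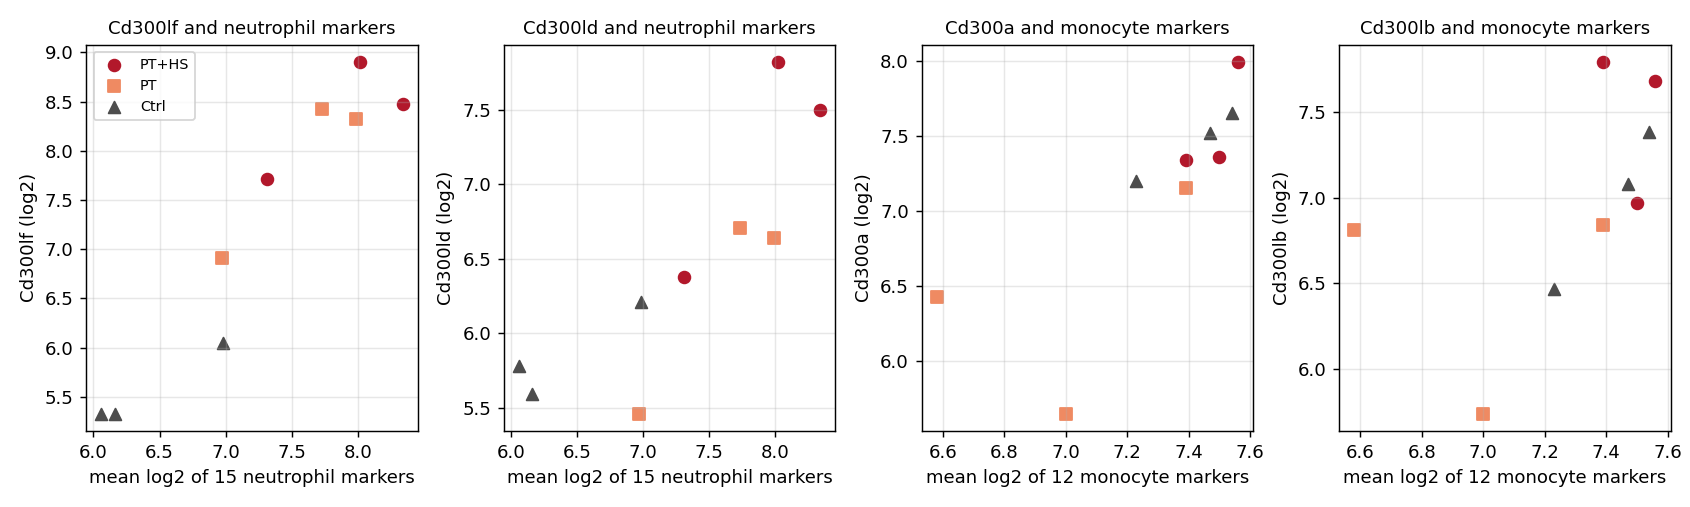
Each point is 1 animal, with the log2 level of a member against the mean log2 level of 15 neutrophil markers (Cd300lf, Cd300ld) or 12 monocyte markers (Cd300a, Cd300lb), marked by group. PT + HS and PT animals lie at a neutrophil mean of 6.97 or more, and the PT animals include the lowest values of Cd300a and Cd300lb.

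The genes most like each member over the 9 arrays differed between the members. The search covered genes whose mean exceeded the median gene, with Pearson's r over 9 arrays as a description. As these genes were picked by their likeness on the same arrays, an order of groups like that of the member follows from the choice. For Cd300lf they were Rab27a, a GTPase of granule release (r = 0.99), Cxcr2, the chemokine receptor of neutrophils (r = 0.99), and Arg2, a mitochondrial arginase (r = 0.99). Cxcr2 had 9.53, 8.88 and 9.86 in PT + HS, 9.31, 8.13 and 9.24 in PT, and 7.87, 7.14 and 7.28 in Ctrl. For Cd300ld they were H2-Q10, a class I histocompatibility gene of a near-identical family and therefore uncertain (r = 0.98), Csf3r, through which granulocyte colony-stimulating factor acts (r = 0.96), and Pfkfb4, a regulator of glycolysis (r = 0.95). For Cd300a they were Nadk, the kinase that makes NADP (r = 0.98), Gm2a, a lysosomal lipid carrier (r = 0.95), and Idh1, the cytosolic isocitrate dehydrogenase (r = 0.94). Nadk had 8.12, 7.71 and 7.89 in PT + HS, 7.68, 6.77 and 7.40 in PT, and 7.96, 7.73 and 7.93 in Ctrl. For Cd300lb they were Ethe1, a mitochondrial sulfur dioxygenase (r = 0.94), Slc25a10, the dicarboxylate carrier of mitochondria (r = 0.92), and Ints6l, a subunit of the integrator family (r = 0.92). For Cd300lg, whose whole range was 2.85 to 2.95, they were Zfp592 (r = 0.90), Polrmt (r = 0.89) and Psapl1 (r = 0.88).

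In the gene order of RefSeq, 11 CD300 genes form a cluster on chromosome 11 that runs from Cd300a to Cd300lf and holds 1 gene of another name, Rab37. Cd300lg lies apart on the same chromosome, with 146 protein-coding genes in between. Of the cluster, the 4 members and Cd300c2 had a value here. Cd300c2, an activating relative that pairs with Tyrobp and Fcer1g, had 7.59, 6.86 and 6.85 in PT + HS, 6.68, 6.21 and 6.49 in PT, and 6.70, 5.81 and 5.90 in Ctrl. PT + HS lay above PT and Ctrl on all arrays and exceeded Ctrl by 0.97 (standard error 0.29, adjusted p = 0.657 by limma), past the thresholds. It exceeded PT by 0.64 (standard error 0.29), not past them. Rab37, a GTPase of vesicle transport that lies between Cd300e and Cd300lf, differed by -0.42 between PT + HS and Ctrl and by -0.19 between PT and Ctrl (standard error 0.15), the other direction than Cd300lf. The genes outside the cluster, Gprc5c on the side of Cd300a and Slc9a3r1 and Nat9 on that of Cd300lf, differed by -0.28 to 0.36 in the 3 comparisons. Those beside Cd300lg, which are Cfap97d1, Mpp3, Mpp2 and Ppy, differed by -0.16 to 0.09. None of these neighbors was past the thresholds. Rab37, Gprc5c, Nat9, Cfap97d1, Mpp3 and Ppy were dim, with means of 2.37 to 4.09, below the median gene of 4.29. A change is hard to see at such levels, while Slc9a3r1 (8.53) and Mpp2 (5.43) were above it. Of the relatives of the family outside the cluster, Fcmr, the receptor for IgM on lymphocytes, had 7.83, 8.76 and 8.41 in PT + HS, 8.25, 6.64 and 9.64 in PT, and 9.19, 9.73 and 10.15 in Ctrl. PT and Ctrl overlapped, and their difference of -1.51 (standard error 0.62) was past the thresholds with PT replicate 2 as the lowest array. Pigr and Fcamr, which transport or bind immunoglobulins, differed by -0.16 to 0.27.

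The adaptors of the activating members were measured with high signals. Tyrobp, the adaptor of Cd300lb, had 11.43, 10.81 and 11.12 in PT + HS, 11.34, 10.47 and 10.72 in PT, and 10.62, 10.47 and 10.48 in Ctrl. Its excess over Ctrl was 0.60 for PT + HS, past the thresholds (standard error 0.24, adjusted p = 0.949 by limma), and 0.32 for PT, not past them. Fcer1g, the adaptor of Cd300ld, differed from Ctrl by 0.29 in PT + HS and -0.02 in PT (standard error 0.23), and Syk, the kinase that both recruit, by -0.31 and -0.35 (standard error 0.27). Fgr, a Src-family kinase of myeloid cells, was higher in PT + HS than in Ctrl by 0.67 (standard error 0.22), past the thresholds. Plcg2, a phospholipase, and Lat2, an adaptor that B cells also express, had differences of -0.90 and -1.23 between PT and Ctrl, both past them, and Lat2 also passed between PT + HS and Ctrl with -0.76. Of 15 measured adaptors and kinases, 2 were higher and 1 lower past the thresholds in PT + HS against Ctrl, 2 were lower in PT against Ctrl, and none passed between PT + HS and PT. Over all genes 3.28%, 3.67% and 1.12% passed in these comparisons. The medians of the 15 genes were -0.01 between PT + HS and Ctrl, -0.03 between PT and Ctrl and 0.28 between PT + HS and PT.

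Among the enzymes that inhibitory members recruit, Ptpn6 had its lowest mean in PT, as Cd300a did. This was not particular to Ptpn6. Ptpn11, Inpp5d, Csk, Dok1 and Dok3 of the same list had it too. Among the adaptors and kinases Plcg2, Lat2, Btk, Syk, Fyn, Grb2, Fcer1g, Pik3cd and Pik3r1 also had their lowest mean in PT. Of these, Fcer1g, Pik3cd and Pik3r1 lay only 0.02 to 0.06 below Ctrl there. Tyrobp, Fgr, Lcp2 and Vav1 had their lowest mean in Ctrl, and Hcst and Vav3 in PT + HS. Dok2, Cbl and Cblb had their lowest mean in Ctrl. Ptpn6, the main phosphatase at the tails of Cd300a and Cd300lf, had 8.30, 7.93 and 8.05 in PT + HS, 7.93, 7.26 and 7.63 in PT, and 8.09, 8.44 and 8.91 in Ctrl. PT lay below Ctrl on all arrays, by 0.87 in the mean (standard error 0.25, adjusted p = 0.594 by limma), past the thresholds, and PT + HS exceeded PT by 0.49 without passing. Csk, a kinase that holds Src kinases inactive, was also lower in PT than in Ctrl past the thresholds (-0.62, standard error 0.23). Ptpn11, the related phosphatase, and Dok1, a docking protein that dampens signaling, differed by -0.53 and -0.52 between PT and Ctrl and by 0.46 and 0.49 between PT + HS and PT, none past them. Of 9 measured genes of this list, 2 were lower in PT against Ctrl and 0 passed in the other comparisons, with medians of 0.30 between PT + HS and PT, -0.02 between PT + HS and Ctrl and -0.28 between PT and Ctrl. Over all genes 1.12%, 3.28% and 3.67% passed in these comparisons.

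Other receptor families of myeloid cells also have inhibitory and activating members. Of 13 measured inhibitory receptors outside the CD300 family, 5 were higher and 1 lower past the thresholds in PT + HS against Ctrl, and 2 were higher and 1 lower in PT against Ctrl. Over all genes 3.28% passed in PT + HS against Ctrl and 3.67% in PT against Ctrl. For Pirb, an inhibitory receptor for class I molecules, the excess over Ctrl was 1.33 with PT + HS and 0.95 with PT (standard error 0.29). For the IgG receptor Fcgr2b it was 1.28 with PT + HS and 0.85 with PT (standard error 0.33), and for the sialic acid receptor Cd33 1.56 with PT + HS and, not past the thresholds, 0.94 with PT (standard error 0.42). Siglecg, an inhibitory receptor of B cells, was the lower one in both, with -1.45 for PT + HS and -1.22 for PT (standard error 0.40). Of 14 measured activating receptors, 9 were higher past the thresholds in PT + HS against Ctrl and 7 in PT against Ctrl, and 0 were lower. Clec4e and Clec4d, lectin receptors that signal through Fcer1g, were among them, Clec4e with 2.90 for PT + HS and 2.89 for PT (standard error 0.59) and Clec4d with 2.01 for PT + HS and 1.78 for PT (standard error 0.38). The IgG receptor Fcgr3 had 1.63 for PT + HS and 1.29 for PT (standard error 0.29), and Trem1, a receptor that pairs with Tyrobp, had 1.31 for PT + HS and 1.18 for PT (standard error 0.32). The median was 0.40 in PT + HS and 0.29 in PT over the inhibitory receptors, and 1.27 in PT + HS and 0.84 in PT over the activating ones. Between PT + HS and PT, 1 inhibitory receptor was higher, 1 was lower and 1 activating receptor was higher past the thresholds, with medians of 0.38 and 0.23. Over all genes 1.12% passed there. As the lists were drawn up with earlier results known, nothing is read from these counts. No gene of either list passed an adjusted p under 0.05 by limma, where the smallest was 0.189.

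**Figure D4:**
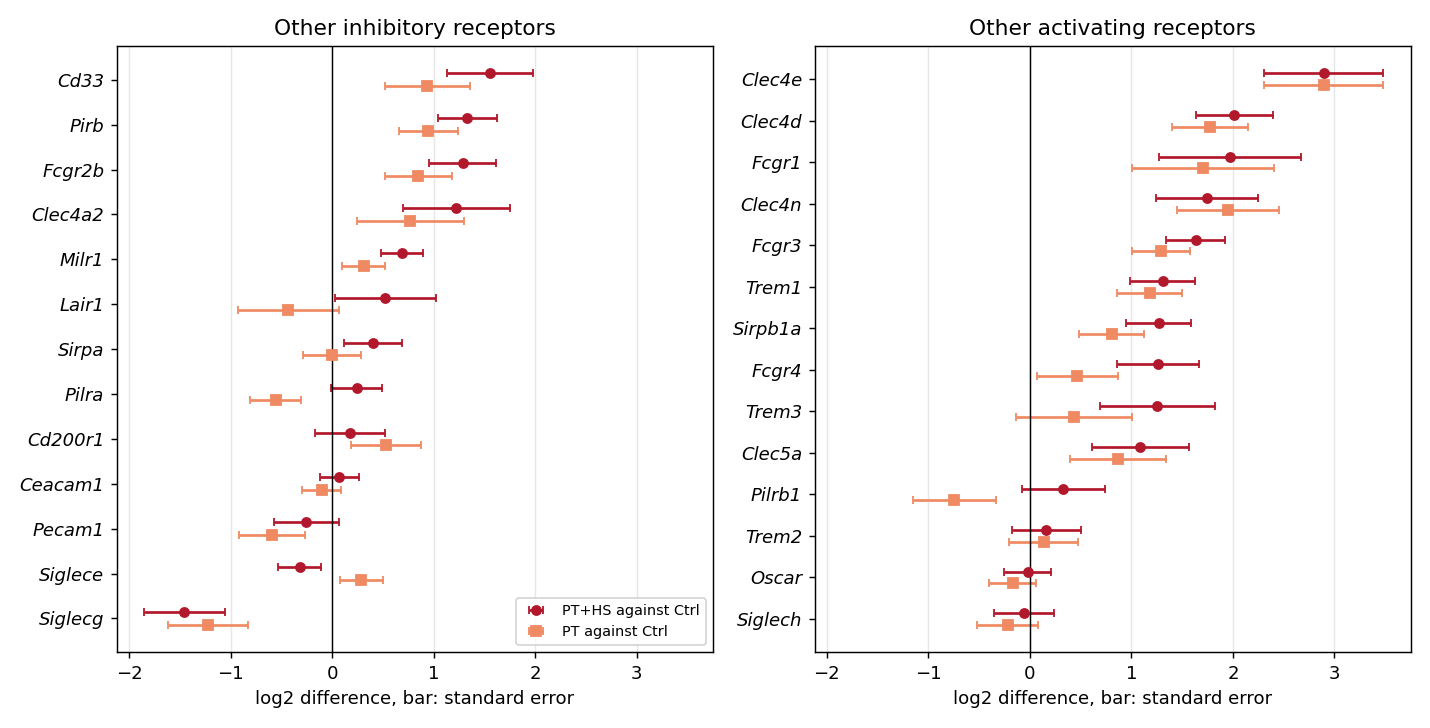
Log2 differences from Ctrl of 13 inhibitory and 14 activating receptors of myeloid cells outside the CD300 family, with PT + HS as circles, PT as squares and bars for limma's standard error. Of the activating receptors 9 were past the thresholds in PT + HS, all higher, and of the inhibitory ones 5 were higher and Siglecg lower. Over all genes 3.28% passed in PT + HS against Ctrl.

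Phosphatidylserine, a lipid that dying cells expose and that Cd300a and Cd300lf bind, is also seen by other receptors and by bridging proteins, which were measured on the same arrays. Havcr1 and Timd4, known as ligands of Cd300lb and receptors of the lipid themselves, were dim. Havcr1 had means of 3.34 in PT + HS, 3.48 in PT and 3.23 in Ctrl, and Timd4 of 2.74 in PT + HS, 2.62 in PT and 2.64 in Ctrl. Mfge8, a bridging protein, was lower in PT + HS than in Ctrl past the thresholds (-0.67, standard error 0.16, adjusted p = 0.440 by limma). Mertk, a receptor kinase of phagocytes, Pros1, its bridging ligand, and Stab1, a scavenger receptor, were not past them in any comparison. Mertk differed by 0.38 between PT + HS and Ctrl (standard error 0.16). Pros1 differed by 0.50 between PT + HS and PT and by -0.44 between PT and Ctrl (standard error 0.20), and Stab1 by -0.40 between PT + HS and PT (standard error 0.17). Of 15 measured genes of this kind, Mfge8 was the only one past the thresholds in any comparison, with medians of 0.08 between PT + HS and PT, 0.06 between PT + HS and Ctrl and -0.02 between PT and Ctrl. Over all genes 1.12%, 3.28% and 3.67% passed in these comparisons.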

How the data were processed

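Peripheral blood RNA of 9 mice was measured on 9 arrays, 3 each for PT + HS, PT and Ctrl. The log2 values were deposited by the authors, who used robust multiarray average in Expression Console and BRB-ArrayTools. The sources used here give no versions of them. The methods name a Mouse Gene ST array, while the probe set names belong to an earlier Affymetrix type, whose annotation was used. Of 45101 probe sets, 34958 had exactly 1 gene symbol, and per gene the probe set of highest mean was kept, without a filter on low values. Of the 5 members 5 were measured.

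limma 3.58.1 in R 4.3.3 was fitted to the 9 arrays together, with a mean for each group, two-sided moderated tests and Benjamini-Hochberg adjustment over 18194 genes. No source used here says that replicate numbers pair animals. The p-values set a difference between groups against the spread between animals, which limma moderates over all genes. Members, gene lists, marker lists and alternatives were chosen with earlier results of these data known, and the sequence motifs with the sequences in view. Named were all members, up to 4 genes per list with the smallest unadjusted p, the 3 genes most correlated with each member, and neighboring genes. Adaptors, partners and relatives of members were named beside them. The fit was tested on simulated data. Alternatives were the t-test of the methods, fits to 2 groups, a variance trend, array weights, equal medians, repeated quantile normalization, a filter on dim genes, averaged probe sets, a replicate block and leaving out each array.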

Additional observations from a re-analysis of the deposited data

How the results depend on the processing

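The difference of Cd300a was known when the family was picked up, so that nothing is read from counts that include it. With Cd300a counted along as a description, the number of members past the thresholds of the study was 3 between PT + HS and PT, where 1.12% of all genes passed. It was 0 with the methods' t-test, 1 with array weights, under which PT replicate 1 made up 86.9% of the PT mean, and 1 to 3 when single arrays were left out. Leaving out PT replicate 2, PT + HS replicate 1 or PT + HS replicate 3 gave 1 and left none of the other 4 members past them. Between PT and Ctrl, where 3.67% of all genes passed, the count was 2, and 1 with the t-test or with averaged probe sets. Between PT + HS and Ctrl it was 2 under all alternatives run, where 3.28% of all genes passed in the main fit. The second probe set of Cd300a had the opposite sign, with -0.30 between PT + HS and PT and 0.13 between PT and Ctrl. With array weights Cd300a differed by 0.53 and -0.40 in these comparisons, and the 2 members past the thresholds between PT and Ctrl were Cd300lf and Cd300ld (0.73). Of 270 differences of single members under alternatives, 264 moved by less than the SD between replicates and 13 changed sign. Many of the 270 could not move, since the t-test, fits to 2 groups, variance trend, filter and replicate block leave the log2 difference as it is. The same holds where the array left out belongs to neither group of a comparison. This share is therefore no measure of how stable the differences are.

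Cd300lf between PT + HS and Ctrl had an adjusted p by limma of 0.166, and of 0.0323 with a variance trend, 0.0185 with array weights and 0.0117 with the arrays of both groups alone. With the replicate number as a block it was 0.0262, and the counts of members stayed at 3, 2 and 2. Whether replicate numbers pair the samples was not settled. Of 9 same-numbered pairs 3 correlated above 0.1 in their deviations, with 0.48 between Ctrl replicate 3 and PT replicate 3. Of 9 arrays 4 correlated best with their own number. With 3 animals per group this neither shows nor excludes a pairing.

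Over all genes, 204 were past the thresholds between PT + HS and PT, 668 between PT and Ctrl and 596 between PT + HS and Ctrl. These counts were 76, 293 and 542 with the t-test, 877, 1666 and 837 with array weights, and 855, 1117 and 831 without PT replicate 2. Between PT + HS and PT, leaving out PT replicate 1 gave 506, PT replicate 3 gave 623 and PT + HS replicate 2 gave 335, with 132 above the median gene and 103 with averaged probe sets. Between PT and Ctrl it was 1493 without PT replicate 3, and between PT + HS and Ctrl 898 with the arrays of both groups alone.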
